A study of Mus musculus with 15 samples.

Results

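*Hipk2* encodes homeodomain-interacting protein kinase 2 and lies on the minus strand of mouse chromosome 6. The regions described here are those of the deposited tables that overlap chr6:38664000-38855000 (mm39), which is the gene and the sequence just past its 3' end. They number 17 of the 44598 regions in the table made for the knockdown comparison (KD table) and 1 of the 38036 regions in the table made for the overexpression comparison (OE table). Of the 17 regions, 6 lie in the 3' zone (chr6:38664000-38675000) and 11 in the rest of the gene, and the single OE-table region lies inside one of the 6. The locus was selected on its measured levels in the knockdown lines, which were higher than in their control, so every value of the knockdown lines against that control is a description here and carries no test.

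HIPK2 is a nuclear serine/threonine kinase. It is known for phosphorylating p53 after DNA damage and so favoring apoptosis over survival, and it is kept at low levels in unstressed cells by ubiquitin ligases of the SIAH family. It also acts on transcriptional corepressors such as CtBP. The *Hipk2* messenger RNA ends in a long 3' untranslated stretch. SMARCD1 (BAF60A), the protein that was altered in these cells, is a subunit of the SWI/SNF (BAF) complex, which moves nucleosomes and so changes how accessible the DNA is.

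The promoter of *Hipk2* is shown as background only, and a link between its sequence and the levels given here was not tested. It comprises the 250 bases before the RefSeq start, read on the minus strand at chr6:38876191-38876440 of GRCm38.p6, a different build from that of the regions. Capitals mark matches to GGGCGG, the GC box bound by SP-family factors, or to its reverse complement CCGCCC, with overlapping matches allowed.
Hipk2 promoter: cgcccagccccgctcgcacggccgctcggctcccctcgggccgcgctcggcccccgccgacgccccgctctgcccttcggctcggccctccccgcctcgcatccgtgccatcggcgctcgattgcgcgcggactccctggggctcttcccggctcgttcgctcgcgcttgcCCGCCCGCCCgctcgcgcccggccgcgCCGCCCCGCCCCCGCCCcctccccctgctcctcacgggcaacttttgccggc
The window holds 5 matches, 43 CpG dinucleotides and 80.8% G and C. Among 32851 RefSeq promoter windows of the same length, 32.7% hold the motif, the median is 6 CpG and 52.4% G and C, and 0.992% are at least as rich in G and C as *Hipk2*. No annotation of mm39 was used, so it was not determined whether any of the 17 regions covers this window.

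The cells were 6DT1, a mouse mammary tumor line, grown in monolayer on plastic with no treatment other than the selection antibiotics named below. The libraries, 3 per group, came from 5 lines: an empty vector control (EV), *Smarcd1* overexpression (OE), a scrambled shRNA control (Scr), and a pair of *Smarcd1* knockdown lines labelled KD4 and KD6. The EV and OE lines and the shRNA lines were made with lentiviral vectors and kept in blasticidin and in puromycin, respectively, so line set and selection cannot be told apart between EV and Scr. The labels call EV and Scr wildtype and state that each replicate was seeded from a different passage on a later day. Accessibility was measured by ATAC-seq, in which a transposase inserts adapters into open DNA, whereas the labels describe RNA extraction and the processing notes name the RNA aligner STAR, so reads of open DNA and of RNA cannot be told apart in these counts. Totals ran from 16176518 to 23703753 counts per library in the KD table and from 22668622 to 31225956 in the OE table. Of all regions in the OE table, 4, all on chromosome 15, were past the threshold for OE over EV. They summed to 56.7 ± 4.53 CPM (counts per 1000000 counts of the library) in OE, 22.9 ± 2.65 in EV, 9.89 ± 0.967 in Scr, 7.00 ± 1.06 in KD4 and 11.3 ± 0.212 in KD6 (SD, n = 3 each), so KD6 was not below Scr there. These regions were picked on OE against EV and could not be placed on *Smarcd1* by name, so neither the overexpression nor the knockdown was checked. Levels are given as CPM after TMM scaling over all 15 libraries of a table, with ± SD over the 3 libraries of a group.

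The widest region of the locus, chr6:38669041-38672419 (3379 bp), also had the highest level. It held 11.6, 10.4 and 10.3 CPM in the Scr libraries, 39.0, 28.9 and 28.7 in KD4, 21.2, 27.5 and 25.8 in KD6, 16.1, 17.4 and 13.7 in EV, and 15.5, 14.98 and 17.8 in OE. All 6 knockdown libraries were above the 9 others, KD4 was above KD6 in every library, and OE and EV overlapped. Group means were 32.2 ± 5.92 CPM in KD4 and 24.8 ± 3.30 in KD6 against 10.7 ± 0.714 in Scr (SD, n = 3 each), a log2 difference of 1.58 and 1.21 from Scr, respectively. These counts came to 187 to 200 raw counts per Scr library and 457 to 693 per knockdown library.

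The region on its far 3' side, chr6:38665830-38668011 (2182 bp), showed the same order of groups. Levels were 7.85, 7.45 and 6.84 CPM in Scr, 25.6, 19.0 and 17.8 in KD4, 14.6, 19.3 and 16.6 in KD6, 10.9, 10.7 and 9.46 in EV, and 12.1, 10.8 and 8.62 in OE. Again each knockdown library exceeded all 9 of the others, whereas here KD4 and KD6 overlapped. Between both of these lies the short region chr6:38668295-38668690 (396 bp), the densest of the locus with 16.8 CPM per kb. It had 5.44, 2.08 and 4.59 CPM in Scr, 14.6, 9.46 and 7.82 in KD4, 6.71, 9.08 and 12.1 in KD6, 3.63, 5.57 and 4.24 in EV, and 5.82, 4.73 and 4.002 in OE. Its lowest knockdown library was also above the 9 other libraries, although the spread within each knockdown line was wide.

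**Figure D1:**
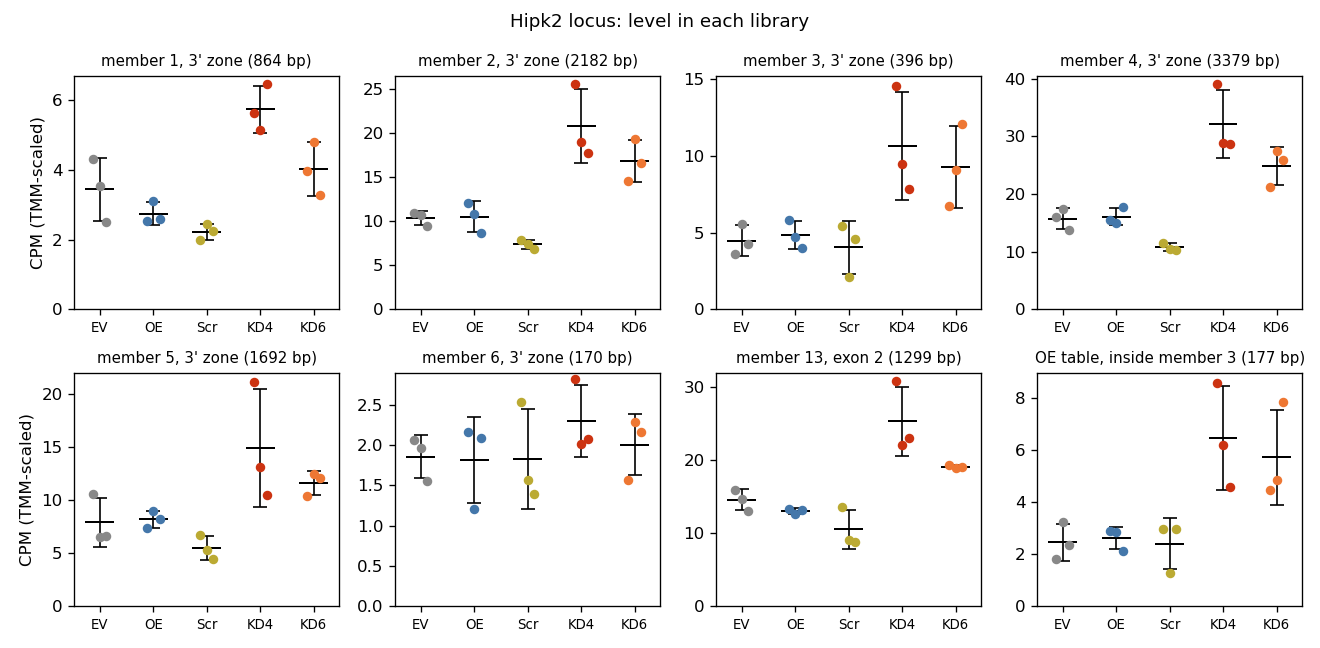
Levels at the *Hipk2* locus in every library, in TMM-scaled CPM (vertical axes from 0) for the 5 groups, with points for libraries and bars for the mean and SD (n = 3). The 6 regions of the 3' zone are numbered from the far 3' side, followed by the region on exon 2 and the single region of the OE table. In the panels of members 2, 3, 4 and 13 and of the OE table all 6 knockdown libraries lie above the other 9, and in the panel of member 6 all groups overlap.

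The remaining regions of the 3' zone behaved less uniformly. Region chr6:38672600-38674291 (1692 bp) held 6.74, 5.31 and 4.43 CPM in Scr, 21.2, 13.1 and 10.5 in KD4, 10.4, 12.5 and 12.1 in KD6, 10.6, 6.57 and 6.64 in EV, and 7.42, 9.004 and 8.23 in OE. The knockdown libraries were all above Scr, but 1 EV library reached into their range. At the far 3' edge, region chr6:38664623-38665486 (864 bp) had 1.98, 2.45 and 2.24 CPM in Scr, 5.63, 5.14 and 6.48 in KD4, 3.98, 4.82 and 3.28 in KD6, 4.31, 3.53 and 2.49 in EV, and 2.53, 3.12 and 2.59 in OE. KD4 stood above all other libraries there, and KD6 overlapped with EV.

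The exception in the 3' zone was chr6:38674709-38674878, the shortest of its regions with 170 bp. Levels were 2.54, 1.56 and 1.39 CPM in Scr, 2.82, 2.02 and 2.07 in KD4, 1.57, 2.28 and 2.17 in KD6, 2.06, 1.97 and 1.55 in EV, and 2.16, 1.204 and 2.09 in OE. All 5 groups overlapped, and the log2 difference of the mean of KD4 and KD6 from Scr was 0.24 (SE 0.25), the smallest of the 17 regions.

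Away from the 3' zone the highest level lay in chr6:38794930-38796228 (1299 bp). It held 13.6, 9.11 and 8.84 CPM in Scr, 30.7, 22.1 and 23.0 in KD4, 19.3, 18.8 and 19.0 in KD6, 15.9, 14.7 and 13.03 in EV, and 13.3, 12.6 and 13.2 in OE. As in the widest 3' region, the knockdown libraries were above all 9 others and the KD4 libraries above the KD6 libraries. Group means were 25.3 ± 4.75 CPM in KD4, 19.0 ± 0.208 in KD6 and 10.5 ± 2.68 in Scr (SD, n = 3 each). Over the 15 libraries the levels of this region and of the widest 3' region had a Pearson correlation of 0.95, a description only, since the points share libraries and lines.

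Levels in the rest of the gene were low, with 8 of the other 10 regions under 2 CPM on average. Just outside the 3' zone, chr6:38675156-38675527 (372 bp) had 1.48, 2.05 and 0.992 CPM in Scr, 5.96, 3.89 and 3.55 in KD4, 3.20, 4.43 and 1.96 in KD6, 3.63, 3.13 and 3.63 in EV, and 2.18, 2.93 and 2.23 in OE. This was the only one of the 17 regions where OE and EV did not overlap, and the lowest KD6 library was below the highest Scr library. Region chr6:38692879-38693155 (277 bp) had 1.93, 1.35 and 1.73 CPM in Scr, 6.38, 3.05 and 2.69 in KD4, 2.96, 3.32 and 2.36 in KD6, 2.15, 1.88 and 2.58 in EV, and 2.17, 3.04 and 2.49 in OE. There the mean of KD4 rested in good part on 1 library.

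Both regions between these were smaller still. Region chr6:38680412-38680623 (212 bp) had 1.17, 1.10 and 0.641 CPM in Scr, 2.99, 2.19 and 2.204 in KD4, 1.74, 1.73 and 1.39 in KD6, 2.23, 1.34 and 1.54 in EV, and 1.97, 1.40 and 1.34 in OE. KD6 was above Scr and within the range of EV. Region chr6:38676189-38676352 (164 bp) had 0.362, 0.397 and 0.750 CPM in Scr, 1.68, 0.890 and 1.14 in KD4, 1.31, 1.02 and 0.786 in KD6, 1.36, 0.885 and 0.627 in EV, and 0.796, 0.967 and 0.652 in OE. Knockdown and Scr libraries did not overlap, by a narrow margin.

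Near the 5' end of the gene, chr6:38849980-38850764 (785 bp) had 1.42, 1.35 and 1.07 CPM in Scr, 2.36, 1.61 and 1.97 in KD4, 1.39, 2.38 and 1.80 in KD6, 1.52, 0.626 and 0.706 in EV, and 0.928, 1.11 and 0.902 in OE. Here Scr and the knockdown libraries overlapped and EV, not Scr, had the lowest mean. Its neighbor chr6:38851281-38851929 (649 bp) had 0.866, 0.365 and 0.374 CPM in Scr, 1.18, 1.70 and 2.23 in KD4, 1.53, 1.32 and 1.85 in KD6, 0.834, 0.938 and 0.565 in EV, and 0.567, 1.03 and 0.846 in OE. In this region the 6 knockdown libraries were again above all 9 others. The region nearest to the upper end of the window, chr6:38852729-38852891 (163 bp), averaged 0.605 CPM and had 0.434, 0.109 and 0.0837 CPM in Scr against 0.863, 1.00 and 0.898 in KD4 and 0.602, 0.787 and 1.08 in KD6. EV had 0.532, 0.255 and 0.339 CPM there and OE 0.845, 0.839 and 0.405, so that 2 OE libraries exceeded 2 of the 3 KD6 libraries. The other 3 regions averaged 0.339 to 0.598 CPM, with as little as 1 raw count in some libraries, so their differences are imprecise.

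Over the locus as a whole, all 6 knockdown libraries were above all 3 Scr libraries in 14 of the 17 regions, compared with 2.43% of all regions of the KD table. They were above all 9 other libraries in 5 of 17, compared with 0.152% of all regions. Log2 differences of KD4 and KD6 together from Scr were positive in all 17 regions, with a median of 1.27, compared with -0.01 over all regions tested. In the edgeR fit of both lines together 5 of the 17 were past the false discovery rate (FDR) of 0.05 in the higher direction, beside 0.255% of all regions tested. For KD4 alone against Scr it was 8 of 17, beside 191 of all 44289 regions tested. For KD6 alone it was 2 of 17, beside 63 of all regions, with 0 in the rest of the gene. Nothing is read from these counts since this contrast chose the locus. For both lines together the count was 2 to 6 when 1 library was left out. The lowest, 2, was without Scr replicate 2 or without Scr replicate 3, and it was 3 without Scr replicate 1. Over all regions tested, 120 were past the FDR in either direction with every library, 21, 8 and 15 without Scr replicate 2, 3 and 1, respectively, and 8 to 170 over the 9 libraries left out in turn.

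**Figure D2:**
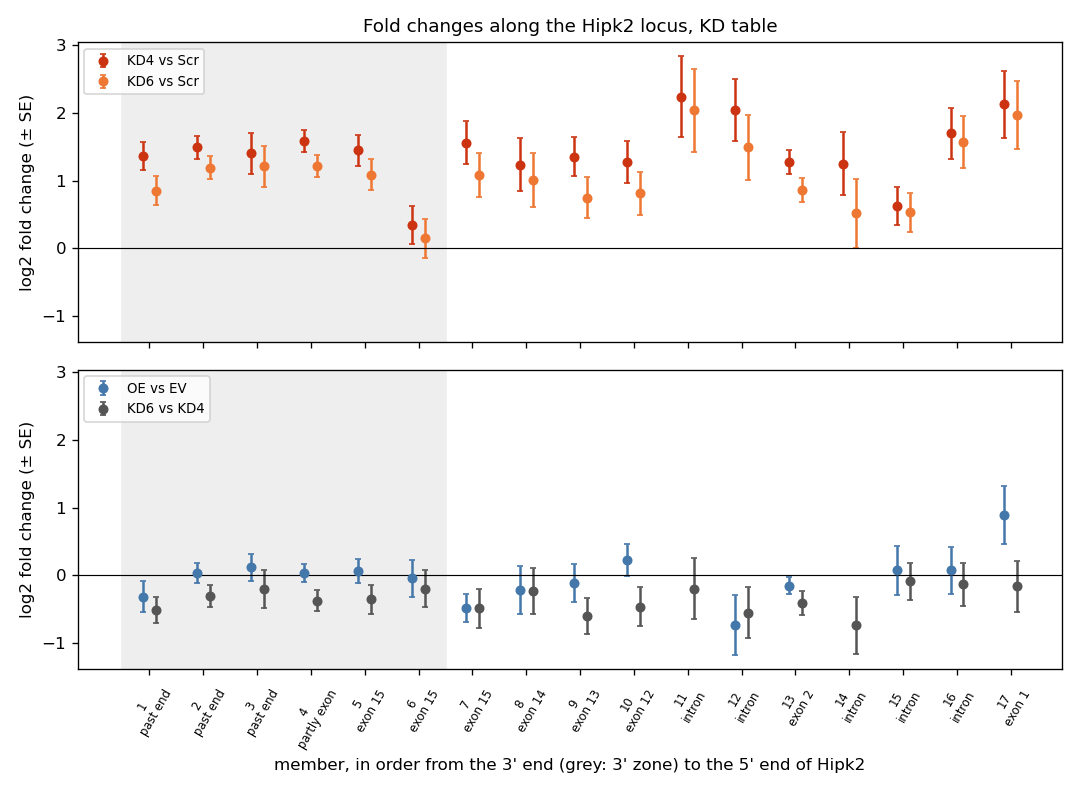
Log2 fold changes from edgeR with their standard errors (vertical axes) for the 17 regions in order from the 3' to the 5' end, with the 3' zone in grey. The top panel gives KD4 and KD6 against Scr, a description with all 17 values positive for both lines, and the bottom panel OE against EV, scattered around 0, and KD6 against KD4, with all 17 below 0.

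Summed over its 6 regions, the 3' zone held 36.1, 29.3 and 29.7 CPM in the Scr libraries, 108.8, 77.6 and 73.3 in KD4, 58.4, 75.5 and 72.1 in KD6, 47.6, 45.7 and 38.1 in EV, and 45.6, 43.9 and 43.3 in OE. The 6 knockdown sums were above the 9 others, and the 3 Scr sums were below all the rest. The other 11 regions summed to 17.8 ± 3.43 CPM in Scr, 44.4 ± 9.09 in KD4, 33.7 ± 1.67 in KD6, 26.2 ± 3.01 in EV and 23.6 ± 0.55 in OE (SD, n = 3 each). Knockdown over Scr came to 1.29 on the log2 scale of the sums in the 3' zone and 1.13 in the rest of the gene.

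The control chosen changes the size of this difference. Scr was below EV, by a log2 ratio of -0.47 in the 3' zone and -0.55 in the rest, and its mean was below that of EV in 15 of the 17 regions. No share over all regions was computed for that count, and the Scr libraries were used in choosing the locus. Against EV the knockdown lines were higher by 0.83 in the 3' zone and 0.58 in the rest, on the log2 scale of the sums. EV and Scr come from separate sets of lines, and EV and Scr libraries did not overlap in 6 of the 17 *Hipk2* regions, against 26.1% of all regions in the KD table.

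Against Scr, the 3' zone and the rest of the gene moved in similar proportion. The 3' zone took 64.2% ± 1.72 of the locus CPM in Scr, 66.04% ± 1.22 in KD4, 66.9% ± 2.83 in KD6, 62.6% ± 2.00 in EV and 65.2% ± 0.74 in OE (SD, n = 3 each), and 61.2% to 69.1% over the 15 libraries. The ranges of Scr, KD4 and KD6 overlapped, and the range of EV overlapped with that of each knockdown line. The reading depends on the control, since EV had the lowest mean share. The ratio of the 3' zone over the rest was 1.68 ± 0.15 in EV and 1.79 ± 0.13 in Scr. It was 1.95 ± 0.10 in KD4 and 2.04 ± 0.25 in KD6 (SD, n = 3 each). Whether the zones differ in their change was not tested.

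**Figure D3:**
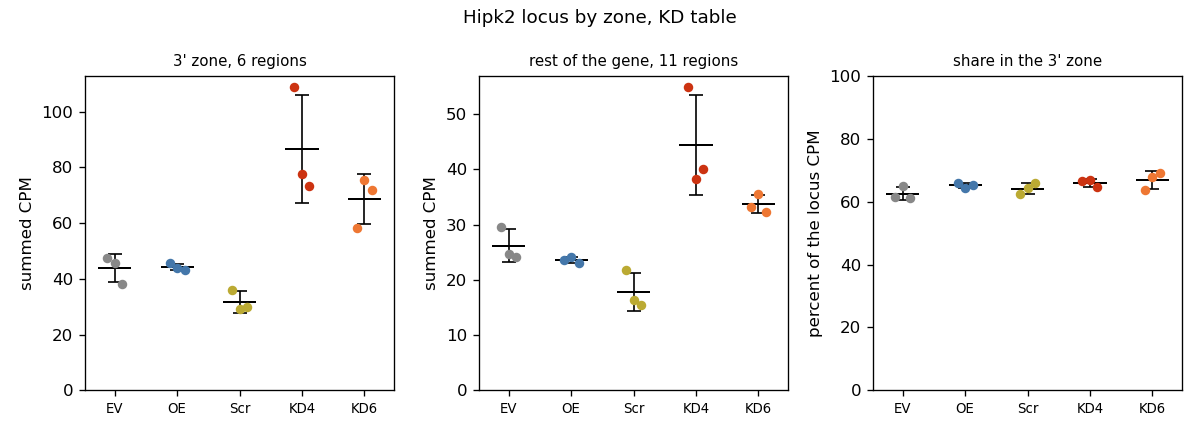
Summed CPM of the 6 regions of the 3' zone (left) and of the 11 other regions (middle), and the percent of the locus CPM in the 3' zone (right), for each library of the 5 groups, with mean and SD (n = 3). Knockdown libraries stand above the rest in both sums, while the share stays between 61.2% and 69.1% in all 15 libraries.

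Where the regions sit within the gene was read from the spacing of exons alone. In GENCODE M1, an older annotation on NCBIM37, a *Hipk2* transcript of 15 exons was laid over the 17 regions with 1 constant shift. The shift was the one that put the most regions on exons, among shifts that align a region edge with an exon edge. The fit of the regions to exons is thus in part built in. With that shift 8 regions lay by at least 50% on 6 different exons (1, 2, 12, 13, 14 and 15) and 5 lay in introns. Another 3 lay past the 3' end annotated there, and the widest region lay partly, by 32.3%, on the last exon. GENCODE M1 gives the gene 181801 bp, whereas RefSeq on GRCm38.p6 gives it 188820 bp, and the 17 regions span 188269 bp. Whether the regions past the GENCODE M1 end lie inside the RefSeq gene was not determined. Region chr6:38676189-38676352 covered exon 14 from its first to its last base, with 164 bp in both. Region chr6:38794930-38796228, with the highest level outside the 3' zone, lay on exon 2. Among 1163 protein-coding genes of chromosome 6, 3 including *Hipk2* could be shifted to put 8 of the 17 regions on exons, and 2 including *Hipk2* reached 6 different exons, so the spacing by itself names no gene.

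Density of counts followed this layout. Per kb of region, the 8 regions on exons held 3.71 to 12.7 CPM (median 7.98), the 5 regions in introns 0.970 to 1.80 CPM (median 1.54) and the 3 regions past the annotated 3' end 4.21 to 16.8 CPM. Regions in introns held 4.51% of the CPM of the 17 regions. The deposited values, which are expected counts, were not whole numbers in at least 14 of the 15 libraries in 6 of the 17 regions, and all 6 lay on exons. Of all values of the 17 regions 37.3% were not whole, compared with 4.88% of all values of the KD table. Whether reads from RNA are among these counts was not tested, and it bears on every level given here.

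**Figure D4:**
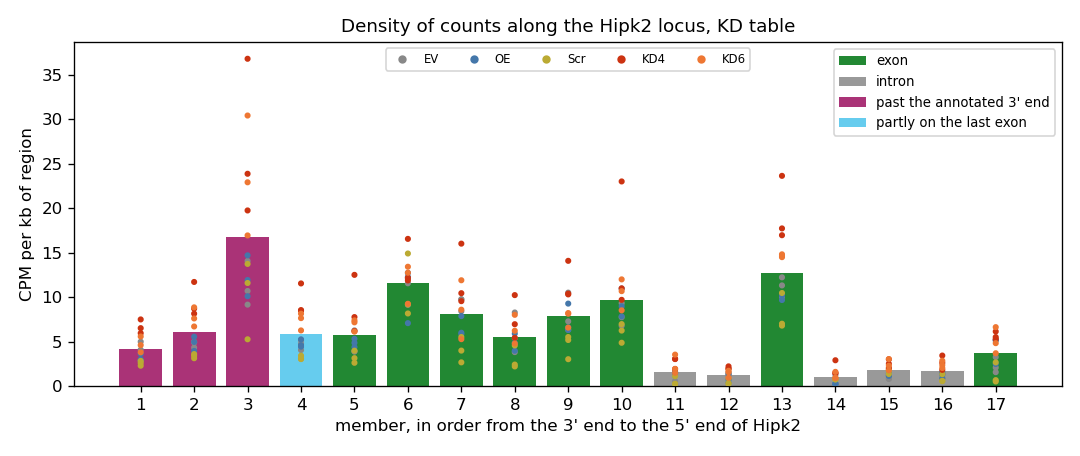
Level per kb of region (CPM per kb) along the locus, from the 3' to the 5' end. Bars give the mean over 15 libraries, colored by place in the gene, and points the libraries; the 5 intron bars are at 0.970 to 1.80 CPM per kb and the 8 exon bars at 3.71 to 12.7.

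The difference between the knockdown lines and Scr was seen in each kind of place. Log2 differences of KD4 and KD6 together from Scr had a median of 1.09 over the regions on exons, 1.64 over those in introns and 1.31 over those past the annotated 3' end. The regions in introns averaged only 0.339 to 1.41 CPM.

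Overexpression against EV was a comparison that the choice of the locus did not use. For OE against EV no region of the locus passed the test. In the KD table, 15 of the 17 regions had enough counts to be tested in edgeR, and 0 were past an FDR of 0.05, as were 0.0% of the 44011 regions tested in the KD table. DESeq2 gave an adjusted p for 5 of the regions and called 0 of them, and its filter on low counts left the others without one, including both with an unadjusted p under 0.05 in edgeR. At an unadjusted p of 0.05, 1 region was higher and 1 lower, compared with 3.34% and 3.26% of all regions tested. The median log2 fold change was 0.03 over the locus, with 8 regions positive and 7 negative, and 0.00 over all regions.

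At the widest 3' region, OE averaged 16.1 ± 1.47 CPM and EV 15.7 ± 1.89 (SD, n = 3 each), with a log2 fold change of 0.04 (SE 0.13, edgeR adjusted p = 0.970). The exon 2 region had 13.01 ± 0.379 CPM in OE and 14.5 ± 1.44 in EV, with a log2 fold change of -0.15 (SE 0.13, edgeR adjusted p = 0.847). Both values are within the spread between libraries. The largest departures were at regions of lower level. Region chr6:38675156-38675527, with OE below EV in every library, had a log2 fold change of -0.48 (SE 0.21, edgeR unadjusted p = 0.0362, adjusted p = 0.752). The region nearest to the 5' end, chr6:38852729-38852891, averaged 0.696 ± 0.252 CPM in OE and 0.375 ± 0.142 in EV, with overlapping libraries (log2 fold change 0.89, SE 0.42, edgeR adjusted p = 0.756). OE and EV libraries overlapped in 16 of 17 regions, and 11.3% of all regions in the KD table had OE and EV libraries that did not overlap.

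The 3' zone summed to 44.2 ± 1.18 CPM in OE and 43.8 ± 5.03 in EV (SD, n = 3 each), a log2 ratio of 0.01. In the rest of the gene the ratio was -0.15. The knockdown values at the same regions are set against other controls, so they are given side by side and no test of the difference between the OE and knockdown effects was made.

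The single region that the OE table holds at this locus, chr6:38668333-38668509 (177 bp), lies inside the densest region of the 3' zone. It had 1.80, 3.23 and 2.36 CPM in EV, 2.88, 2.87 and 2.12 in OE, 2.97, 1.29 and 2.97 in Scr, 8.59, 6.20 and 4.60 in KD4, and 4.48, 4.87 and 7.83 in KD6. EV, OE and Scr libraries overlapped, and the knockdown libraries were all above it, as in 0.134% of all regions of that table. OE against EV gave a log2 fold change of 0.11 (SE 0.24, edgeR adjusted p = 0.904), where 0.0106% of the 37765 regions tested were past the FDR of 0.05. Both tables count the same 15 libraries, so this is no independent sight of the knockdown lines. Knockdown against Scr, for which 0.0739% of the regions tested in that table were called higher, had a log2 difference of 1.34 (SE 0.28), close to the 1.31 (SE 0.27) of the region that surrounds it.

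Both knockdown lines were then compared with each other. The locus was selected on levels in these same lines, so this comparison is not fully independent of that choice. KD6 was lower than KD4 in all 17 regions, with log2 fold changes of -0.74 to -0.09 and a median of -0.35, compared with 0.00 over all regions tested. None of them was past an FDR of 0.05 in edgeR, where 0.224% of the 44289 regions tested were, and DESeq2 also called 0. At an unadjusted p of 0.05, 4 of 17 were lower in KD6, compared with 3.24% of all regions tested. The 17 regions are parts of 1 gene in the same 6 libraries, so their shared direction is not 17 separate observations.

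Those 4 regions include the widest of the 3' zone (log2 fold change -0.37, SE 0.15, edgeR adjusted p = 0.632) and the region at the far 3' edge (-0.51, SE 0.20, adjusted p = 0.567 from edgeR). The others are the exon 2 region (-0.41, SE 0.17, edgeR adjusted p = 0.665) and chr6:38680412-38680623 on exon 13 (-0.60, SE 0.26, edgeR adjusted p = 0.717). KD4 and KD6 libraries did not overlap in 5 of 17 regions, and over the KD table all KD4 libraries were above all KD6 libraries in 5.81% of regions. KD4 replicate 1 was the highest of the 15 libraries at the sums of both zones. Without KD4 replicate 1, KD6 was lower in 13 of 17 regions and the median was -0.21, and the smallest adjusted p from edgeR was 0.606.

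In the zone sums KD6 was below KD4 by 0.33 on the log2 scale in the 3' zone (a log2 ratio of -0.33) and had a log2 ratio of -0.40 in the rest of the gene. The 3' zone averaged 86.6 ± 19.4 CPM in KD4 and 68.7 ± 9.04 in KD6 (SD, n = 3 each), and the libraries of both lines overlapped. The OE-table region had a log2 fold change of -0.18 for KD6 against KD4 (SE 0.29, edgeR adjusted p = 1.00, where 0.19% of regions tested were past the FDR).

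The order of the group means was nearly the same along the locus. KD4 had the highest and KD6 the next highest mean in 15 of 17 regions, and Scr had the lowest in 14 of 17. Knockdown over Scr is the contrast that chose the locus, and no share over all regions was computed for this order. The counts are therefore a description. Between EV and OE the order varied from region to region, with overlapping libraries except at chr6:38675156-38675527.

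Regions on either side of the locus were centered near 0 in the same contrast. Within 500 kb on either side of the locus the KD table has 82 regions. Their log2 differences of KD4 and KD6 together from Scr had a median of -0.05 and ran from -0.59 to 1.04. Of the 81 tested, 0 were past the FDR of 0.05 in edgeR, where 0.255% of all regions were called higher. At an unadjusted p of 0.05 in edgeR, 5 were higher and 3 lower, beside 2332 and 1321 of all 44289 regions tested. RefSeq places *Luc7l2*, *Klrg2* and *Clec2l* on the lower side of *Hipk2* and *Tbxas1*, *Parp12* and *Kdm7a* on the upper side. The nearest region below the window, chr6:38614326-38614518, had 3.37 ± 0.444 CPM in Scr, 2.82 ± 0.80 in KD4 and 3.73 ± 0.766 in KD6 (SD, n = 3 each). The nearest above it, chr6:39063395-39063819, had 5.92 ± 1.25 CPM in Scr, 8.12 ± 0.733 in KD4 and 6.49 ± 0.524 in KD6. OE against EV had a median of 0.09 and KD6 against KD4 of 0.06 over these flanking regions.

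Elsewhere in the genome, the regions whose level over the 15 libraries was most like the summed 3' zone were sought among 23771 regions of the KD table with at least 5 CPM. Pearson's r of log2(CPM + 0.5) was 0.88 at chr17:75697383-75697802, with 15.4 ± 2.82 CPM in Scr, 29.0 ± 2.92 in KD4 and 24.3 ± 2.65 in KD6 (SD, n = 3 each). Next came chr3:85579552-85580681 (r = 0.88), chr11:109465145-109466097 (r = 0.87), chr6:99602338-99604010 (r = 0.87) and chr17:75583403-75583888 (r = 0.85). For the OE-table region, the most alike of 18723 regions was chr19:8988019-8988405 (r = 0.89), with 183.7 ± 1.39 CPM in Scr, 218.8 ± 18.9 in KD4 and 207.8 ± 24.8 in KD6. These correlations describe points that share libraries, lines and depth, and they carry no test.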

How the data were processed

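The 15 monolayer 6DT1 libraries (EV, OE, Scr, KD4 and KD6, 3 each), deposited as ATAC-seq, were analysed. Per the methods, the authors used Bowtie2 for alignment to mm39 and MACS for peaks, both within Partek Flow, whereas the processing notes name STAR 2.7.8a. Both deposited tables give unnormalized expected counts for each region in all 15 libraries. They were rounded to whole numbers, whereas the design had assumed counts. Each table has 15 more columns that match no sample and were not used. The merging of peaks and the assignment of reads are not given in the sources used here.

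Counts were tested by the quasi-likelihood test of edgeR 4.0.16 in R 4.3.3, with TMM, filterByExpr and Benjamini-Hochberg adjustment over all regions of a table, at an FDR of 0.05. OE and EV were fitted alone, and Scr, KD4 and KD6 in 1 fit. The p-values reflect only how far these libraries differ, which may be technical. Alternatives were other scalings (none, upper quartile, RLE), DESeq2 1.42.0, no filter, at least 50 counts in 3 libraries, a replicate block, a fit of all 15 libraries and each library left out. The fit was also run on simulated data, but the outcome is not given here, and no power to detect a change is claimed from it.

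Same-numbered libraries of compared groups deviated together with r of -0.34 to 0.40 in the KD table, short of 0.1 in some pairs. The labels tie a replicate to a passage and day but do not say that groups shared them, so the numbers were not taken as pairs, though a pairing is not excluded. Replicates differed by at least 3.55 times sampling noise, so none was counted a second time.

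The regions and lists were chosen with earlier results of these data known. Values in every library were printed for the 3' zone, the highest region within 10 kb of the upper end of the window and the 6 others with the highest mean. The region nearest to the 5' end was added after its values were seen. Lists of pathway, neighboring and cell type marker genes needed an mm39 annotation and were not used here. Regions within 500 kb served as flanks.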

Additional observations from a re-analysis of the deposited data

How the results depend on the processing

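For OE against EV and for KD6 against KD4, 0 *Hipk2* regions with an adjusted p were past an FDR of 0.05 under each alternative run, in both tables. The smallest adjusted p over these alternatives was 0.422 and 0.412 in the KD table and 0.799 and 0.938 in the OE table. With the replicate number as a block, 0 regions were called for either comparison and the median of KD6 against KD4 was -0.30. For KD6 against KD4, leaving out KD4 replicate 3, KD6 replicate 1 or KD6 replicate 2 left 16 of 17, 15 of 17 and 15 of 16 regions lower in KD6.

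KD against Scr is the contrast that chose the locus, so its counts are a description. With DESeq2, 9 of the 17 KD-table regions were past the FDR, beside 277 over that whole table. With all 15 libraries in the fit they were 9 and 244, and with 1 library left out 2 to 6 and 8 to 170. The region of the OE table was not called in the fit reported, beside 62 of all regions, and 1 region was called with DESeq2, beside 248, and 1 with all 15 libraries, beside 163. All log2 differences stayed positive under the alternatives run, with a median of 1.11 to 1.37 in the KD table. Over all regions the calls for KD6 against KD4 in the KD table numbered 99, with 247 by DESeq2, 228 with all 15 libraries and 17 to 101 with 1 library left out. Those for OE against EV numbered 0, with 7 by DESeq2 and 2 with the block, and 0 to 1 with 1 library left out. In the KD table the log2 ratios of the zone sums kept their direction, except OE over EV in the 3' zone, at -0.08 to 0.10. In the OE table the log2 fold change of OE against EV was -0.08 without EV replicate 1, and that of KD6 against KD4 was 0.08 without KD4 replicate 1. Regions of under 1 CPM rest on few counts per library, so differences there are imprecise.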
